A study of Glycine max with 8 samples.

Results

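Flower-specific hypersensitive regions are stretches of the soybean genome that were listed as open chromatin in both flower libraries and in none of the 6 libraries of leaf, seed and root. They were found by intersecting the sites of flower 1 and flower 2, keeping intersections of at least 20 bp (reproducible flower regions), and dropping each one that overlapped a site of another tissue by 1 bp or more. This left 1777 regions of 37701 reproducible flower regions (4.71%), out of 442104 sites in all lists. The regions were chosen by their presence or absence in the site lists, so that share and every value that follows from being listed are descriptions, not tested results.

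The study mapped MNase hypersensitive sites in Glycine max, cultivar Williams 82, in 4 tissues with 2 libraries each. Flowers were taken at stage R1, the onset of flowering, from plants in a field. Trifoliate leaves and roots at stage V2, an early vegetative stage, and seeds at stage R4, the full-pod stage, came from greenhouse plants. These grew under 12 h of light at 28 °C and 12 h of dark at 25 °C. For the seed plants the growth text of the other records gives R1, and the seed records were followed. Flower therefore differs from the other groups in growth site and stage as well as in tissue, and these cannot be told apart here. All groups shared formaldehyde fixation at 1%, digestion with 0.01, 0.03 or 0.1 unit of enzyme beside an undigested aliquot, and selection of DNA under 100 bp, while leaf used 0.5 g of powder and the other tissues 1 g. Whether the 2 libraries of a tissue stem from different plants is not stated in the labels.

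Micrococcal nuclease cuts DNA that is not protected by nucleosomes, and under light digestion the short fragments it releases come from exposed stretches such as promoters, enhancers and other stretches bound by regulatory proteins. A flower holds sepals, petals, stamens and a carpel, so a whole-flower library averages many cell types, and a stretch open in a few cells cannot be told apart from one weakly open in many. Soybean chromosomes carry most of their genes towards the ends, and repeats dominate the broad middle around the centromeres. The positions are those of the deposited lists, whose genome build the labels do not name, so neither genes nor sequences are assigned to them.

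Before exclusion, flower 1 listed 50078 sites and flower 2 listed 62094, against 63243 to 82798 in the leaf and seed libraries and 15185 and 18957 in root. Root sites have no score and can be as short as 49 bp, while sites of the other lists start at 100 bp. Read depth is unknown because no read counts accompany the sites, and an unlisted position may still be open. With 2 libraries a tissue, an exact two-sided test of a tissue against another cannot go below p = 0.33, so values are given per library without a test. Intervals are 95% Wilson intervals over regions and cover counting error only.

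The flower-specific regions were short. Their intersections had a median width of 109 bp (quartiles 89 and 132 bp, range 20 to 326 bp), and together they spanned 198 kb. The other reproducible flower regions, which met a site of another tissue and are called shared flower regions here, had a median of 156 bp (quartiles 116 and 210 bp). The whole sites behind them were wider in flower 2, with a median of 154 bp, than in flower 1, with 139 bp, and the corresponding medians for the other flower regions were 211 and 191 bp. Of the reproducible flower regions between 20 and 49 bp, 14.0% were flower-specific, falling to 7.12% of those from 100 to 149 bp and 0.563% of those from 200 to 299 bp. Above that, 1 of 2900 regions of 300 bp or more was flower-specific. A short region has less length with which to overlap a site of another tissue, so part of this order is set by the rule. Regions chosen by the same rule for leaf had a median width of 124 bp, against 191 bp for the other reproducible leaf regions. In seed these medians were 114 and 159 bp.

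The paired flower sites were often offset from each other. Their midpoints lay a median of 33.5 bp apart, against 28.5 bp for the other flower regions, and the intersection made up a median of 58.3% of the stretch the 2 sites covered jointly, against 68.0%. By the same rule, leaf gave 28.5 bp and 64.7%, against 19 bp and 78.8% for its other reproducible regions. Seed gave 35 bp and 58.7%, against 32 bp and 64.7%. The flower-specific regions rested on 1757 distinct flower 1 sites and 1759 distinct flower 2 sites, so some sites carried more than 1 region. In 227 regions (12.8%) the intersection was clear of other tissues but at least 1 whole flower site was not: the flower 1 site reached a site of another tissue in 92 and the flower 2 site in 143. Both did so in 8.

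The longest flower-specific region lay on chromosome 12 at 10515125 to 10515450. It spanned 326 bp, the whole of the flower 1 site, within a flower 2 site of 370 bp, and the nearest site of another tissue, in leaf 1, began or ended 869 bp away. On chromosome 19 at 49282522 to 49282814, sites of 304 bp in flower 1 and 334 bp in flower 2 shared 293 bp. In the region on chromosome 2 at 37116458 to 37116746, the flower 1 site was longer, at 410 bp against 289 bp. The flower 1 sites were also the longer ones on chromosome 6 at 9780458 to 9780740, with 389 against 283 bp, and on chromosome 12 at 2505599 to 2505879, with 404 against 281 bp. All 5 lay within 1.13 kb of a site of another tissue.

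**Figure D1:**
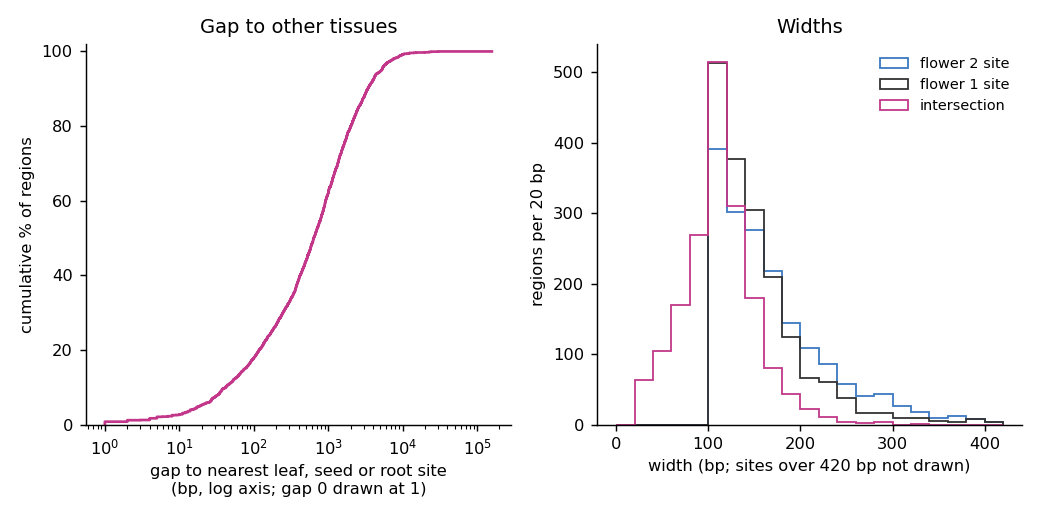
Left, cumulative share of the 1777 flower-specific regions by gap to the nearest leaf, seed or root site (bp, log axis). Right, widths in bp of the intersections and of the flower 1 and flower 2 sites behind them, as counts per 20 bp; the intersections centre at 109 bp, below the medians of 139 and 154 bp of the sites.

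Most flower-specific regions ranked low by score within their lists. The score is the authors' value for each site, no definition comes with it, and it was used only to rank sites within a list. As percentiles of the whole list, the regions had a median of 35.0 in flower 1 and 39.5 in flower 2, against 60.4 and 67.4 for the other reproducible flower regions. A low rank was not particular to flower. Regions chosen by the same rule for leaf had medians of 32.4 and 31.9, against 62.9 and 61.7 for the other reproducible leaf regions. In seed they were 39.7 and 44.6, against 69.6 and 60.4. Of the reproducible regions in the lowest decile of flower 1 scores, 11.7% were flower-specific, against 0.635% in the highest decile. In flower 2 these shares were 12.8% and 0.749%. The share was lower in each higher decile of flower 2, and also in flower 1 except for the step from 8.18% to 8.42% near the low end.

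The 2 flower lists ranked the flower-specific regions differently. Across the 1777 regions, Spearman's rho between the percentiles in flower 1 and flower 2 was 0.20, against 0.47 across the 35924 other flower regions, and rho between the site widths was 0.058 against 0.41. Both coefficients are descriptions across regions of 2 libraries, and the narrower range of widths and ranks in the flower-specific set differs as well. Below the middle of both lists stood 831 regions (46.8%), and above the middle of both 272 (15.3%), whereas 47.4% of the other regions were above it in both. Only 12 regions (0.675%) stood in the highest decile of both lists, against 7.71% of the others.

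**Figure D2:**
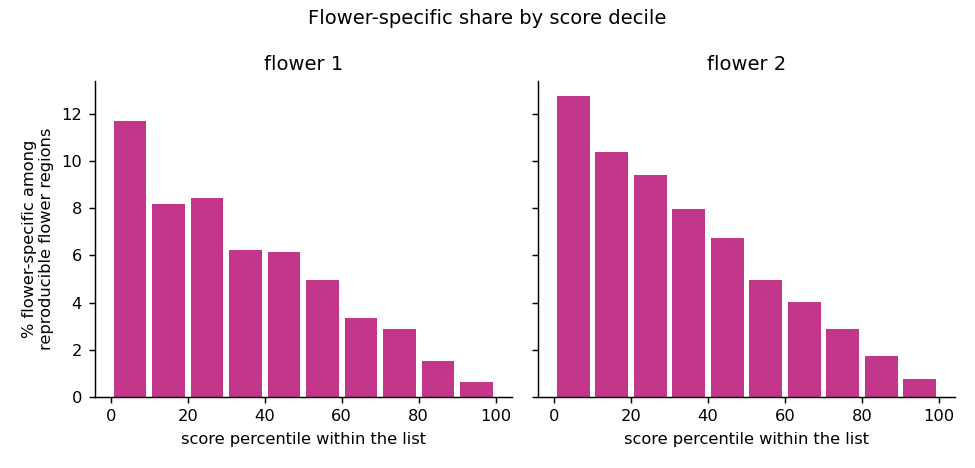
Share of reproducible flower regions that are flower-specific (percent, bars) by decile of score percentile within the flower 1 list (left) and the flower 2 list (right). The share runs from 11.7% to 0.635% in flower 1 and from 12.8% to 0.749% in flower 2.

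The regions that ranked highest in both lists were spread over 9 chromosomes. The first lay on chromosome 6 at 43348095 to 43348222. Its sites were nearly the same width, 132 and 133 bp, and ranked 534 of 50078 in flower 1 and 184 of 62094 in flower 2, with scores of 0.930 and 0.664. The nearest site of another tissue, in seed 1, lay 1.33 kb away and the nearest shared flower region 16.7 kb away.

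The next 2 stood far from shared flower regions. On chromosome 1 at 41651803 to 41651915 the sites ranked 75 in flower 1 (score 1.51) and 1108 in flower 2 (score 0.475), and the nearest shared flower region was 148 kb away. On chromosome 14 at 28069946 to 28070055 they ranked 123 (score 1.35) and 2620 (score 0.404), with the nearest shared flower region at 221 kb. For both, the nearest site of another tissue was a root site, at 1.93 and 6.38 kb.

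Of the other 7, 3 belonged to a pair of clusters on chromosomes 12 and 17 described below. The one on chromosome 12 took its flower 1 percentile of 99.6 from a site of 1022 bp. That site also reached sites of other tissues. The remaining 4 lay on chromosome 4 at 51801905 to 51802050, chromosome 7 at 7449381 to 7449553, chromosome 18 at 55600869 to 55601056 and chromosome 20 at 5336182 to 5336355, each in the outer 20% at a chromosome end. Their percentiles ran from 91.9 to 93.4 in flower 1 and from 91.5 to 98.4 in flower 2. They spanned 146, 173, 188 and 174 bp, all above the median of the set.

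Flower-specific regions were found on all 20 chromosomes, in proportion to the open chromatin of the flower. Chromosome 13 held the most, 143 regions or 3.12 per Mb, followed per Mb by chromosome 11 with 2.96 and chromosome 17 with 2.64. Chromosomes 1 and 18 held the fewest per Mb, 1.25 and 1.26. Across the 20 chromosomes the number per Mb followed that of all reproducible flower regions, with Pearson's r of 0.95 and Spearman's rho of 0.89. These are descriptions, as the reproducible regions include the flower-specific ones.

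As a share of the reproducible flower regions, the chromosomes differed little. The share was highest on chromosome 19 at 5.37% (interval 4.42 to 6.50), chromosome 20 at 5.33% (4.33 to 6.56) and chromosome 10 at 5.24% (4.35 to 6.31), and lowest on chromosome 1 at 3.80% (3.02 to 4.76). The interval held the genome-wide 4.71% on 20 of 20 chromosomes. Chromosome 13, first by density, had a share of 5.09% (4.33 to 5.96). By the same rule, leaf gave 5871 specific regions (9.62% of its reproducible regions) and seed 6297 (13.1%). The leaf-specific share ran from 8.75% on chromosome 14 to 10.4% on chromosome 3, and the seed-specific share from 11.0% on chromosome 17 to 14.8% on chromosome 14.

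**Figure D3:**
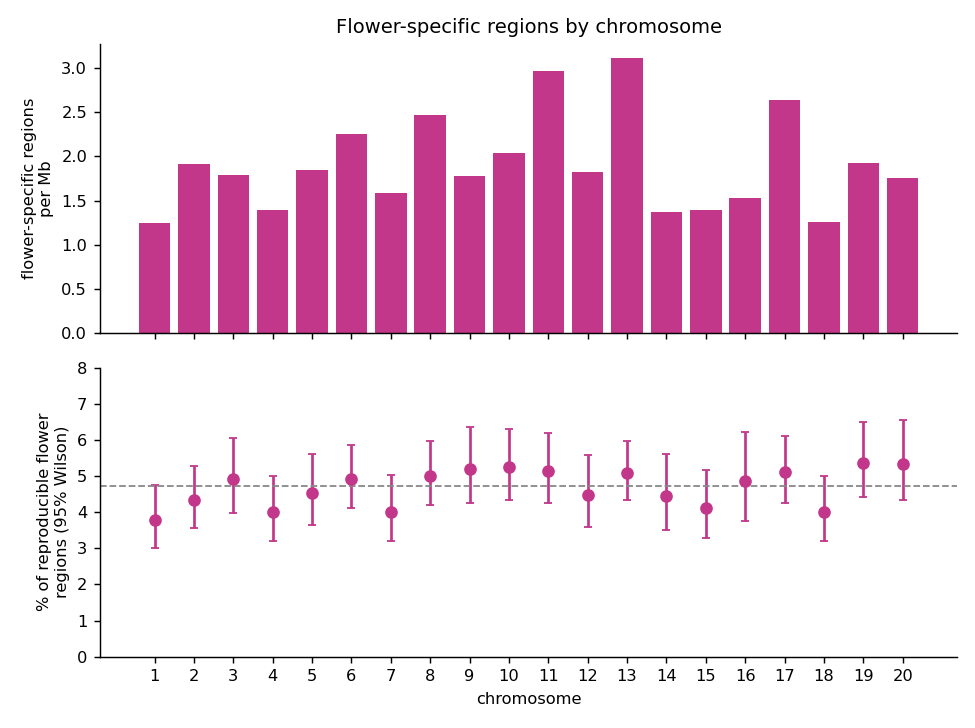
Flower-specific regions per Mb of chromosome span (top, bars) and as a percentage of the reproducible flower regions (bottom, points with 95% Wilson intervals; the dashed line is the genome-wide 4.71%). Density ranges from 1.25 to 3.12 per Mb, while each interval in the lower panel holds the dashed line.

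Along the chromosomes, the flower-specific regions followed the flower sites as a whole. The outer 20% at each end, 40% of the span, held 1256 regions, or 70.7% (interval 68.5 to 72.8), and 68.6% of the other reproducible flower regions. The outer share of the flower-specific regions was above that of the other flower regions on 15 of 20 chromosomes. It was highest on chromosome 4, with 69 of 73 regions (94.5%), and lowest on chromosome 13, with 55 of 143 (38.5%), where the other flower regions stood at 36.8%.

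In bins of 10% of chromosome span, the flower-specific share of reproducible flower regions stayed between 3.53% (40 to 50% of the span; interval 2.66 to 4.66) and 5.12% (90 to 100%; interval 4.65 to 5.64). The leaf-specific share was 10.9% in the first bin and 10.5% in the last, and 6.88% at 60 to 70% of the span. The seed-specific share ran the other way, from 10.5% and 11.2% in the end bins to 16.7% at 60 to 70%. The flower profile was the flattest of the 3 in percentage points, on the lowest base share.

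**Figure D4:**
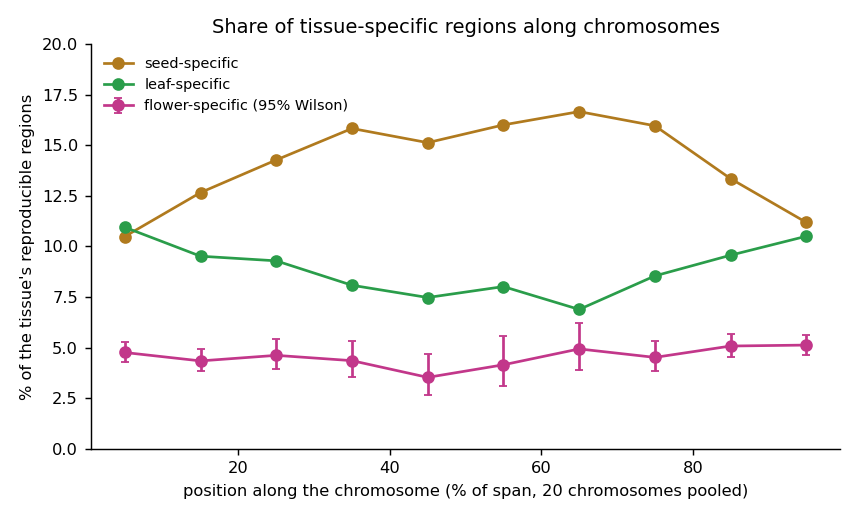
Tissue-specific regions as a percentage of the tissue's reproducible regions, in bins of 10% of chromosome span (20 chromosomes pooled). The flower points (with 95% Wilson intervals) stay between 3.53 and 5.12%, whereas the seed points are highest, and the leaf points lowest, at 60 to 70% of the span.

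The same contrast could be set per library by taking the sites of 1 library that met no site of another tissue, whether or not the second library held them. There were 5516 such sites in flower 1 (11.0% of the list) and 7875 in flower 2 (12.7%), a mean of 11.8% ± 1.18 (SD, n = 2). Leaf gave 14.9% and 15.1%, and seed 21.6% and 23.5%. Both flower shares lay below all 4 leaf and seed shares, and the share also moves with the length of the lists on both sides of the comparison. Of these sites, 69.8% in flower 1 and 70.9% in flower 2 lay in the outer parts, a mean of 70.3% ± 0.807 (SD, n = 2), against 68.2% and 68.7% of all sites in those lists. The leaf values, 70.9% and 70.4%, overlapped those of flower. The seed values, 61.2% and 58.0%, lay below both. Over all sites of those lists the outer shares were 68.1% and 67.6% in leaf, and 65.5% and 63.6% in seed.

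A minority of these sites overlapped a site of the second flower library. Of the flower 1 sites that met no other tissue, 30.8% overlapped a flower 2 site, and of those in flower 2, 21.0% overlapped a flower 1 site, a mean of 25.9% ± 6.92 (SD, n = 2). Over all sites of the 2 lists the shares were 74.3% and 59.3%. In leaf, 48.1% and 49.3% of the sites that met no other tissue were found in the second library, and in seed 32.9% and 41.1%. Over all sites these shares were 79.4% and 81.2% in leaf, and 56.4% and 75.2% in seed. For the sites that met no other tissue, both flower values lay below all 4 others, with flower 1 close to seed 1. The lists thus also differed in their overlap over all sites. The flower sites that met no other tissue stood at a median percentile of 25.9 in flower 1 and 25.7 in flower 2, below the 35.0 and 39.5 of the regions held by both libraries.

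Flower-specific regions were mostly scattered singly. They numbered 1.87 per Mb, and the median gap from a region to the nearest other flower-specific one, on either side, was 83.8 kb. Of 956 windows of 1 Mb, 408 held no flower-specific region, 149 held 1, and 129 held 5 or more, with 852 regions between them. Among the 408, only 176 held 10 or more reproducible flower regions of any kind. The fullest window, on chromosome 17 from 4000001, held 14 among 122 reproducible flower regions, followed by chromosome 13 from 41000001 with 13 of 110 and chromosome 11 from 5000001 with 11 of 105. Among the 10 fullest windows the share was highest on chromosome 8 from 12000001, where 10 of 58 reproducible flower regions (17.2%) were flower-specific. These windows were picked for their counts.

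Linking regions at gaps of at most 10 kb joined 301 regions (16.9%) into 139 clusters and left 1476 alone. Pairs made up 124 of the clusters, 12 held 3 regions, and 1 each held 4, 6 and 7. Some linked regions are parts of a single flower site. The 1777 regions rested on 1757 distinct flower 1 sites and 1759 distinct flower 2 sites. Within 10 kb of another of their kind were 37.0% of leaf-specific and 26.7% of seed-specific regions, but those sets are larger, with 6.19 and 6.64 regions per Mb, so the shares are not comparable as a measure of clustering.

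The largest cluster held 7 flower-specific regions in 13.0 kb on chromosome 17, from 23569380 to 23582359, at 56.6% of the chromosome span. Each region was 103 to 134 bp wide. Flower 1 listed 12 sites in this stretch and flower 2 listed 11, against 2 and 2 in leaf, 3 and 1 in seed, and 3 and 2 in root. Percentiles of the 7 regions ran from 2.99 to 98.7 in flower 1 and from 23.9 to 94.7 in flower 2. The 94.7 belongs to the region at 23576698, part of a flower 2 site of 344 bp. That whole site also reached sites of leaf 1, leaf 2, seed 1 and root 2. The region at 23569380 stood high in both lists, at percentiles 96.2 and 93.6, and so did the one at 23577079, at 98.7 and 91.6. Between them, at 23574106 to 23574258, lay a flower region that all 6 other lists also held, at percentiles 99.8 and 99.9.

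The second cluster held 6 regions in 10.9 kb on chromosome 12, from 24272799 to 24283667, at 60.6% of the span. Every library listed sites in this stretch, with 16 in flower 1, 22 in flower 2, 5 and 11 in leaf, 8 and 8 in seed, and 7 and 4 in root. Of the 14 reproducible flower regions in the stretch, 3 were met by all 6 other lists, and those 3 stood above percentile 99.6 in both flower lists. The first flower-specific region, at 24272799 to 24272939, was the overlap of a flower 1 site of 1022 bp with a flower 2 site of 141 bp, and a seed 1 site lay 36 bp away. That flower 1 site also reached sites of other tissues, so this region belongs to the 227 whose whole sites are not clear of them. The region at 24282944 to 24283028 belongs to the 227 too, as its flower 2 site of 118 bp reached a seed 1 site.

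The third cluster differed from the other two in that no site of another tissue lay inside it. It held 4 regions in 3.01 kb on chromosome 19, from 46554377 to 46557387, at 91.7% of the span, with 4 flower 1 and 3 flower 2 sites. The widths were 198, 123, 79 and 128 bp, and the last 2 regions shared a flower 2 site of 296 bp. Percentiles ran from 34.0 to 76.5 in flower 1 and from 17.9 to 84.0 in flower 2. The region at 46556719 to 46556841 was above the middle of both lists, at 72.6 and 84.0. The nearest site of another tissue was 886 bp from the last region.

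**Figure D5:**
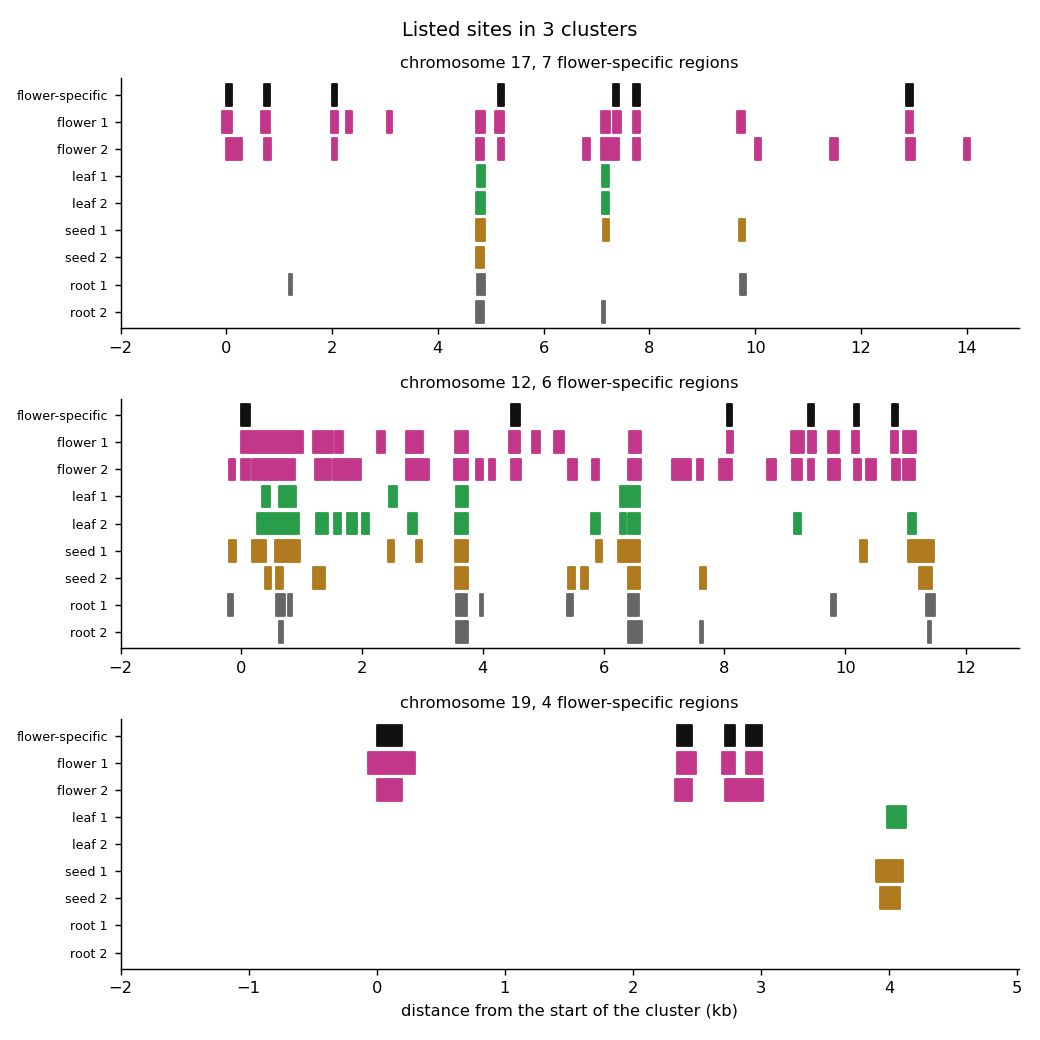
Sites listed in each library across the 3 largest clusters, by distance in kb from the start of the cluster. Black bars are the flower-specific regions and coloured bars the sites of each library; the upper 2 clusters, on chromosomes 17 and 12, hold sites of all 4 tissues, and the lowest, on chromosome 19, holds flower sites only, with leaf and seed sites after its end.

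Flower-specific regions lay among other flower sites. The median gap to the nearest shared flower region was 3.01 kb, against 3.25 kb from one shared flower region to the nearest other one. Within 1 kb of a shared flower region lay 448 regions (25.2%), beside 28.0% for the shared regions among themselves. With flower-specific neighbours counted too, 535 regions (30.1%) had a reproducible flower region within 1 kb. Within 100 bp the shares were 4.61% and 9.82%. The flower-specific regions within 1 kb of a shared one had a median width of 108 bp and median percentiles of 35.7 in flower 1 and 41.0 in flower 2, beside 109 bp, 35.0 and 39.5 for the whole set.

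The regions also lay close to open chromatin of the other tissues, which they had to miss. The median gap to the nearest leaf, seed or root site was 641 bp. For 317 regions (17.8%) it was at most 100 bp, for 1102 (62.0%) at most 1 kb, and for 15 (0.844%) more than 10 kb. The corresponding median was 702 bp for leaf-specific and 1.03 kb for seed-specific regions, measured against other sets of lists. The nearest site belonged to seed for 933 regions (52.5%), to leaf for 740 (41.6%) and to root for 104 (5.85%). By library, the median gap was 1.24 kb to seed 1, 1.47 kb to leaf 1, 1.57 kb to leaf 2, 1.85 kb to seed 2, 14.1 kb to root 2 and 18.3 kb to root 1, which is the order of the lists by number of sites.

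By neighbourhood nearly all flower-specific regions fell into 3 groups. Besides the 448 with a shared flower region within 1 kb, 655 (36.9%) had a site of another tissue within 1 kb but no shared flower region, and 659 (37.1%) had their nearest site of another tissue at 1 to 10 kb. Median widths in the 3 groups were 108, 107 and 113 bp, and the outer parts of the chromosomes held 68.5%, 73.1% and 70.1%. The other 15 regions had no site of another tissue within 10 kb, and 53.3% of them lay in the outer parts.

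The most isolated region lay on chromosome 13 at 8433098 to 8433198. It was a site of 101 bp in flower 1, at percentile 52.1, inside a site of 131 bp in flower 2, at percentile 87.1. The nearest site of another tissue, in leaf 2, was 158 kb away, and the nearest shared flower region 418 kb away. The next were on chromosome 18 at 19451649 to 19451778, 29.97 kb from a leaf 1 site, at percentiles 33.5 and 73.5, and on chromosome 16 at 26749789 to 26749909, 24.5 kb from a root 2 site, at percentiles 13.7 and 34.5.

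Membership rested on narrow margins for a small part of the set. At the intersection limit, 15 regions measured 20 to 24 bp and 15 further intersections, clear of other tissues, measured 15 to 19 bp and were left out. At the exclusion limit, 7 regions touched a site of another tissue without sharing a base and 41 had a gap of 1 to 10 bp, while 55 reproducible flower regions were excluded by an overlap of 1 to 10 bp summed over the 6 lists. Median width was 96 bp on both sides of that limit.

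More regions were kept out by a single library. Of the reproducible flower regions, 2063 met exactly 1 of the 6 lists: 679 met seed 1 only, 588 leaf 1 only, 490 leaf 2 only, 263 seed 2 only, 22 root 1 only and 21 root 2 only. Without seed 1 the set would therefore hold 2456 regions, and without root 2 it would hold 1798. When only sites held by both libraries of another tissue could exclude, it held 5121. All of these settings left the outer share between 70.1 and 71.2%.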

How the data were processed

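Sites were deposited as 1 list per library. Per the submitters' processing notes, the tools were Trimmomatic 0.36 and BWA 0.7.15-r1140. No label or header states how sites were called or on which genome build. Column 5 of the leaf, flower and seed lists was deposited by the authors as a score per site without a header, and was used only as a rank or percentile within a list. Duplicate lines were dropped from root 1 (479) and root 2 (649). Starts were taken to count from 0 and are printed from 1. Gaps are base pairs between edges, and chromosome span is the last site end over all libraries (948.9 Mb in all). The set, the lists and the comparisons were chosen with earlier results of these data known. Named regions are the 10 highest by the lower of their 2 percentiles, the 5 widest, the 3 largest clusters and the 3 farthest from other tissues. A table of 46816 protein-coding genes of Glycine_max_v4.0 did not match the coordinates (15.8% of flower 1 sites within 500 bp of a gene end, 15.2% after moving the sites by 50 kb), so no gene is named. Interval code was written in Python 3.11.15 with numpy 2.4.6, pandas 2.3.3 and scipy 1.17.1 and tested on simulated lists. The alternatives tried were other overlap, distance and score limits and leaving out each library.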

Additional observations from a re-analysis of the deposited data

Results flagged for a closer look

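Sites that met no other tissue differed from the whole list in outer share, and the direction in flower was opposite to that in seed. The share was higher by 1.55 percentage points in flower 1 and by 2.19 in flower 2, whereas the differences were -4.34 in seed 1 and -5.62 in seed 2. Leaf moved in the same direction as flower, by 2.84 in leaf 1 and 2.75 in leaf 2. Flower and seed also differ in stage and growth site, which cannot be told apart from tissue here. The difference between flower and seed was not tested, since an exact two-sided test of 2 libraries against 2 cannot go below p = 0.33.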

How the results depend on the processing

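Over 132 recomputed values, 85 stayed close to the reported one: a count within 1.5 times, a share within its Wilson interval, and a median width or percentile within 1 SD of the 2 flower libraries. Wherever the outer share was recomputed, it held its value except under other definitions of the outer part, with 41.6% for 10% and 86.4% for 30% at each end. Leaving out 1 library in turn gave 1798 to 7875 regions, a median width of 109 to 130 bp, an outer share of 69.8 to 71.2%, 17.0 to 40.1% within 10 kb of another, 57.1 to 61.8% within 1 kb of another tissue, a mean median percentile of 36.9 to 38.5 and 24.2 to 26.2% within 1 kb of a shared flower region. The last 2 ranges cover only the 6 leaf, seed and root libraries, as these values were not recomputed without a flower library. The counts without flower 1 (7875) and without flower 2 (5516) are sites of a single library, with 40.1 and 27.4% within 10 kb of another. For the settings that follow, the values are given in the order of count, median width, share within 10 kb of another, share within 1 kb of another tissue, mean median percentile and share within 1 kb of a shared flower region, as far as they moved. Intersections of at least 100 bp gave 1171 regions, 124 bp, 10.8%, 59.5%, 41.9 and 20.7%. The upper 50% of the flower lists by score gave 272 regions, 133 bp, 4.04%, a percentile of 70.1 and 13.6%. The upper 50% of every scored list gave 1098 regions, 148 bp, 9.65%, 43.4%, 69.8 and 11.7%. In both of these settings the higher percentile follows from the score limit itself. With exclusion by reproducible sites only, there were 5121 regions, with 28.7%, 44.0% and 22.9% for the 3 distance shares. With whole flower sites clear of other tissues these were 15.2%, 56.5% and 21.5%, and with exclusion at 100 bp 14.2%, 53.8% and 20.7%. Where a setting left out sites of another tissue, the share within 1 kb of another tissue counts only the sites kept. Those shares are therefore not the same measure as the reported one. Other distance limits move the shares by construction: within 5 and 50 kb of another lay 12.4 and 38.2%, within 500 bp and 5 kb of another tissue 43.7 and 94.7%, and within 500 bp and 5 kb of a shared flower region 15.1 and 63.3%. With flower-specific neighbours counted too, a setting chosen after seeing the data, 30.1% had a reproducible flower region within 1 kb. With replicate numbers used as a replicate block, so that flower 1 was set only against libraries numbered 1 and flower 2 against those numbered 2, whole sites gave 1608 regions; nothing in the labels says that the numbers pair plants. Read depth is unknown and limits every absence.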
